A study of Mus musculus with 6 samples.

Results

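EpCAM and the matriptase system were followed through sorted tumour cells as 6 genes, taken by name from a deposited table of 25978 genes. They are the adhesion molecule gene Epcam, the surface protease genes St14 (matriptase), Prss8 (prostasin) and Tmprss2, and the inhibitor genes Spint1 and Spint2. All 6 were present in the table and passed the filter on low values. The cells came from primary pancreatic tumours of KPCY mice on a C57BL/6 background, between 5 and 7 weeks of age. Both groups share one genotype, in which Pdx1-Cre acts in pancreatic cells to delete Trp53 (Trp53fl/fl) and to switch on a yellow fluorescent protein, YFP, from Rosa26LSL-YFP. YFP-positive cells were sorted by EpCAM on their surface, giving 3 EpCAM+ and 3 EpCAM- libraries. Since Pdx1-Cre also acts in normal pancreas, YFP marks descent from pancreatic cells and not malignancy.

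EpCAM is a surface glycoprotein of epithelia that mediates contact between cells and binds claudin-7. Matriptase is a serine protease anchored in the membrane of most epithelia, where it and prostasin, a protease held by a lipid anchor, can activate each other. Both are held in check by Spint1 and Spint2 (HAI-1 and HAI-2), membrane proteins with Kunitz domains, the folds that block trypsin-like proteases. Matriptase cleaves EpCAM, which ties the adhesion molecule to the protease system, and loss of Spint2 frees that cleavage in the gut. Tmprss2 is another protease of the same membrane-anchored class, best known for its androgen-driven expression in prostate and for priming viral surface proteins.

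The stretches before the starts of Epcam, Spint1 and Spint2 are shown because each held a match to a motif searched. Promoter entries of RefSeq on GRCm38.p6 matched 4 of the 6 genes, Epcam, Spint1, Spint2 and Tmprss2, and the 250 bases before each start were searched on both strands. The motifs were AACCGGTT, the element of Grainyhead factors, and CAGGTG or CACCTG, the E-box letters bound by Snail and Zeb repressors. CCGGAA or TTCCGG, letters of Ets factors, were searched as well. The shorter ACCGGT, which lies inside the Grainyhead element, was added after the sequences had been read. Capitals below mark matches to any of them, 5′ to 3′ on the gene's own strand, for Epcam (chr17:87635729-87635978, plus strand), Spint1 (chr2:119237110-119237359, plus strand) and Spint2 (chr7:29281978-29282227, minus strand).
Epcam: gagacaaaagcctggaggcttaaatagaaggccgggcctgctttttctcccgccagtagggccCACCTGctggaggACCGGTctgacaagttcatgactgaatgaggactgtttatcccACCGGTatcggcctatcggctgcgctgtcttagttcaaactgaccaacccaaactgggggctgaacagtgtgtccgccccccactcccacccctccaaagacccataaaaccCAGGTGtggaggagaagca
Spint1: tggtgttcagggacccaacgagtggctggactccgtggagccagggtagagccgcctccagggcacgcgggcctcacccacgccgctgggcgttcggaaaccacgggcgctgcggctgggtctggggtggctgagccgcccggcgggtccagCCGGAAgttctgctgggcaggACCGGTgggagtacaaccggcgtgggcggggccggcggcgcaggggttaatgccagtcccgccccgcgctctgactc
Spint2: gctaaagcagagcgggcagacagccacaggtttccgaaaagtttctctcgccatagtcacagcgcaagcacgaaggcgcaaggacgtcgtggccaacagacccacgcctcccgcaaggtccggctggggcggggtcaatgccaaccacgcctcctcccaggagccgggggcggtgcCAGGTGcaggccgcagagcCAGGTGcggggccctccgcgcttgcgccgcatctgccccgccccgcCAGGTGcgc

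The Epcam stretch held 2 E-box matches, CACCTG beginning 187 bases and CAGGTG beginning 19 bases before the start, and 2 matches to ACCGGT, beginning 174 and 131 bases before it. Spint2 held 3 E-box matches, all CAGGTG, beginning 74, 55 and 9 bases before its start. In Spint1 there was 1 match to ACCGGT, beginning 77 bases before the start, and 1 to CCGGAA, beginning 98 bases before it. All distances count from the RefSeq starts. For Spint2, and by a few bases for Spint1, these lie upstream of the gene edges given below (29281912 and 119237362). The Tmprss2 stretch (chr16:97611196-97611445, minus strand) held none of the letters searched, and AACCGGTT was found in none of the 4 stretches. Over 32851 promoter entries of the same length, 17.2% held an E-box match, 12.0% an Ets match, 1.86% ACCGGT and 0.116% AACCGGTT. A match is a run of letters and not a measured binding site.

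All 6 genes were lower in EpCAM- cells, and the inhibitor gene Spint1 fell least. In limma, 6 of 6 fell at an adjusted p under 0.05 (Benjamini-Hochberg), as did 23.1% of the 15783 genes tested. The levels of EpCAM- and EpCAM+ libraries did not overlap for any of the 6, and 29.2% of tested genes were lower in EpCAM- without overlap. A decrease of at least 4 log2 units was reached by 5 of the 6 and by 2.69% of all tested genes. The median log2 fold change of the 6 was -5.62, against 0.0043 over all tested genes. Epcam is part of these counts and of this median, but its fall was set by the sort on its protein and is no separate result. In sorted bulk cells, fewer cells that carry an RNA and less of it per cell cannot be told apart.

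**Figure D1:**
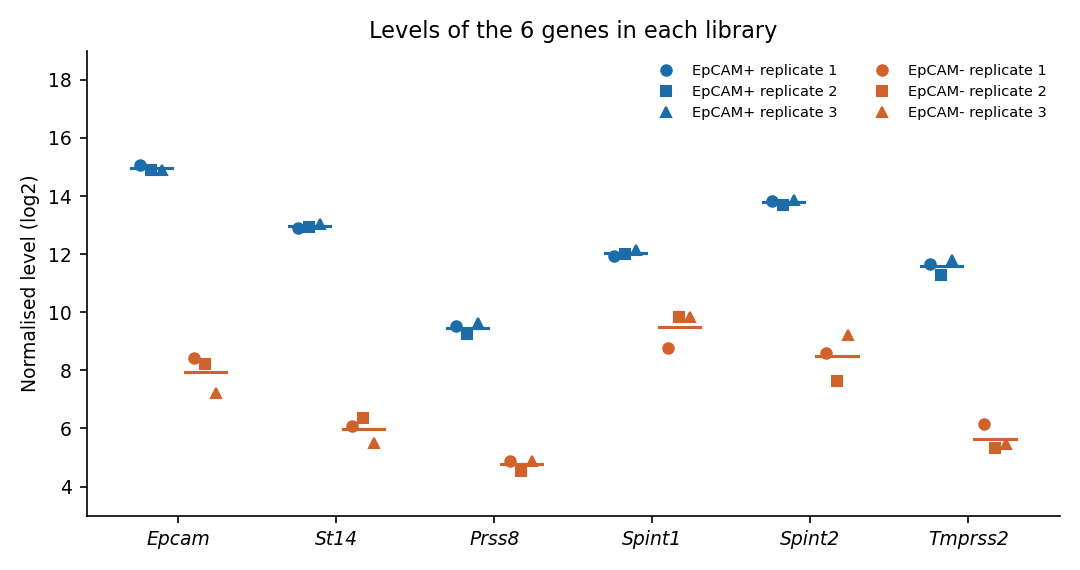
Normalised level (log2, vertical axis) of the 6 genes in each of 3 EpCAM+ (blue) and 3 EpCAM- (orange) libraries, with marker shapes for the replicate number and horizontal lines for group means. The blue and orange points do not overlap for any gene, and the gap is smallest for Spint1.

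Epcam (ENSMUSG00000045394, GRCm38 chromosome 17, 87635979 to 87651129, plus strand) encodes the protein used for the sort, so its RNA checks the labels. In EpCAM+ replicates 1, 2 and 3 its log2 level stood at 15.06, 14.90 and 14.89, and the EpCAM- libraries, in the same order, had 8.42, 8.22 and 7.22. The EpCAM+ libraries lay close together, while EpCAM- replicate 3 lay below the other EpCAM- libraries. The log2 fold change of -7.00 ± 0.30 (SE, n = 3 per group, limma adjusted p = 7.43e-06) was the 15th lowest of all tested genes. On the back-transformed scale, EpCAM- cells held 0.782% of the EpCAM+ level, with a 95% interval from 0.482% to 1.27%.

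St14, the matriptase gene (ENSMUSG00000031995, chromosome 9, 31089402 to 31131853, minus strand), stood directly after Epcam in that order. The EpCAM+ replicates had log2 levels of 12.90, 12.94 and 13.04, and the EpCAM- replicates 6.08, 6.37 and 5.51. As for Epcam, EpCAM- replicate 3 was the lowest library. The fold change of -6.98 ± 0.22 (SE, n = 3 per group, limma adjusted p = 5.40e-06) left 0.795% of the EpCAM+ level, with a 95% interval from 0.558% to 1.13%. The pseudogene Gm16071 lies within the St14 locus and fell too, with a log2 fold change of -3.49 ± 0.21 (SE, limma adjusted p = 2.78e-05). No source used here says how reads shared between overlapping genes were assigned.

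Tmprss2 (ENSMUSG00000000385, chromosome 16, 97564682 to 97611195, minus strand) had log2 levels of 11.68, 11.30 and 11.79 in EpCAM+ replicates 1, 2 and 3, against 6.14, 5.33 and 5.48 in the EpCAM- replicates. Replicate 2 was the lowest library of each group for this protease gene. The fold change was -5.94 ± 0.24 (SE, n = 3 per group, limma adjusted p = 7.26e-06), and 1.63% of the EpCAM+ level remained (95% interval from 1.09% to 2.44%).

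Prss8 encodes prostasin (ENSMUSG00000030800, chromosome 7, 127925716 to 127930104, minus strand) and had the lowest level of the 6 in both groups before correction for length. The EpCAM+ libraries had log2 levels of 9.52, 9.24 and 9.62, against 4.89, 4.54 and 4.87 in the EpCAM- libraries. Libraries of a group lay close together in both groups, with an SD of 0.20 in each. The fold change was -4.69 ± 0.19 (SE, n = 3 per group, limma adjusted p = 7.13e-06), leaving 3.87% of the EpCAM+ level (95% interval from 2.83% to 5.29%). Prss8 overlaps Kat8, a histone acetyltransferase gene on the opposite strand whose log2 level of 8.34 ± 0.081 in EpCAM+ cells compared with 7.90 ± 0.25 in EpCAM- cells (SD, n = 3 per group). No source used here says whether the counting used strand, so reads from the overlap cannot be told apart.

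The inhibitor genes fell by unequal amounts. Spint2 (ENSMUSG00000074227, chromosome 7, 29256323 to 29281912, minus strand), which encodes HAI-2, had log2 levels of 13.84, 13.68 and 13.86 in EpCAM+ and 8.60, 7.64 and 9.23 in EpCAM- replicates. Here EpCAM- replicate 3 was the highest EpCAM- library, unlike for Epcam and St14. The fold change was -5.30 ± 0.36 (SE, n = 3 per group, limma adjusted p = 4.85e-05), with 2.54% of the EpCAM+ level left (95% interval from 1.40% to 4.59%). Spint1 (ENSMUSG00000027315, chromosome 2, 119237362 to 119249527, plus strand), which encodes HAI-1, had log2 levels of 11.93, 12.00 and 12.16 in EpCAM+ and 8.79, 9.83 and 9.84 in EpCAM- replicates. EpCAM- replicate 1 was the lowest library for Spint1. Its fold change of -2.54 ± 0.28 (SE, n = 3 per group, limma adjusted p = 0.000438) left 17.1% of the EpCAM+ level. The 95% interval of that share, from 10.8% to 27.2%, did not meet the interval of any of the other 5 genes.

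Levels of different genes were compared per kilobase of merged exons in GENCODE M21. No source used here says whether the deposited values were already corrected for length. In EpCAM+ libraries the log2 level per kilobase was highest for Epcam (13.82 ± 0.096, SD, n = 3), followed by Spint2 (11.61 ± 0.095), Spint1 (10.56 ± 0.12) and St14 (10.03 ± 0.072). Tmprss2 (8.72 ± 0.26) and Prss8 (8.57 ± 0.20) came last, and the values of these protease genes overlapped. Epcam lay at the 99.6th percentile of tested genes per kilobase in every EpCAM+ library, and per kilobase both inhibitors stood above all 3 proteases. The order of Spint1 and St14 depends on the division by length. As deposited, St14 (12.96 ± 0.072, SD, n = 3) stood above Spint1 (12.03 ± 0.12) in EpCAM+ libraries.

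In EpCAM- libraries the order per kilobase changed. Spint1 came first at 8.02 ± 0.60 log2 units per kilobase (SD, n = 3), ahead of Epcam at 6.82 ± 0.64 and Spint2 at 6.31 ± 0.80, and the values of Epcam and Spint2 overlapped. Spint1 and Epcam did not overlap, although EpCAM- replicate 1 had 7.32 for Spint1 and 7.29 for Epcam. Prss8 (3.88 ± 0.20), St14 (3.05 ± 0.44) and Tmprss2 (2.78 ± 0.43) followed, with overlapping values for St14 and Tmprss2. Spint1 lay between the 60.1st and 76.3rd percentile of tested genes in EpCAM- libraries and St14 between the 11.3rd and 16.8th. In EpCAM+ libraries St14 had lain between the 92.1st and 93.1st percentile and Spint1 between the 94.5th and 95.6th. Matriptase RNA and the RNA of its inhibitor HAI-1, which ranked close together in EpCAM+ cells, were thus far apart in rank in EpCAM- cells.

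**Figure D2:**
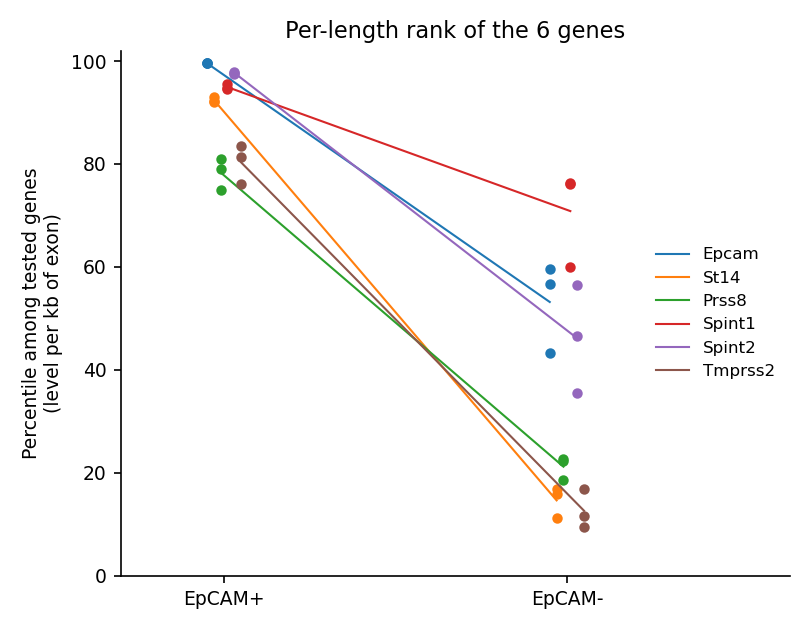
Percentile of each gene among the 15783 tested genes by level per kilobase of exon (vertical axis) in EpCAM+ and EpCAM- libraries; points are libraries and lines join group means. St14, Prss8 and Tmprss2 lie at or under the 22.6th percentile in EpCAM- libraries and Spint1 at or above the 60.1st.

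The balance of protease and inhibitor RNA was measured as the difference of 2 log2 levels within a library, in 6 pairs. Gene length cancels when such a difference is compared between groups. With 3 libraries against 3, an exact two-sided permutation test cannot go below 0.1, so no pair could pass a threshold of 0.05. In EpCAM+ replicates 1, 2 and 3, St14 minus Spint1 came to 0.97, 0.94 and 0.88, against -2.71, -3.46 and -4.33 in the EpCAM- replicates. Every EpCAM- library lay far below every EpCAM+ library for this pair, the widest shift of the 6. The difference between groups was -4.43 ± 0.47 (SE, exact permutation p = 0.1, adjusted over the 6 pairs 0.15), a 21.6-fold lower ratio of St14 to Spint1.

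The other proteases also fell more than Spint1. Tmprss2 minus Spint1 went from -0.44 ± 0.24 to -3.83 ± 1.03 and Prss8 minus Spint1 from -2.57 ± 0.18 to -4.72 ± 0.73 (SD, n = 3 per group). Their groups did not overlap, with differences of -3.39 ± 0.61 and -2.15 ± 0.44 (SE, exact permutation p = 0.1 for each, adjusted 0.15).

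Against Spint2 the shifts were smaller and less uniform. St14 minus Spint2 was -0.94, -0.74 and -0.82 in EpCAM+ and -2.53, -1.28 and -3.72 in EpCAM- replicates, a difference of -1.68 ± 0.71 (SE, exact permutation p = 0.1, adjusted 0.15). The groups did not overlap, but the EpCAM- libraries were spread over more than 2 log2 units. Prss8 minus Spint2 differed by 0.61 ± 0.37 (SE, exact permutation p = 0.3, adjusted 0.3) and Tmprss2 minus Spint2 by -0.64 ± 0.47 (SE, exact permutation p = 0.2, adjusted 0.24). Single EpCAM- libraries moved these values. Without EpCAM- replicate 3 the differences for St14, Prss8 and Tmprss2 were -1.07, 0.92 and -0.18, and without EpCAM- replicate 2 they were -2.29, 0.30 and -0.90. The pairs of Prss8 and Tmprss2 with Spint2 overlapped between groups with all libraries. Neither difference was larger than the SD of the EpCAM- libraries (0.62 and 0.79), though both were larger than that of the EpCAM+ libraries (0.11 and 0.17). As a description chosen after its values were seen, Spint2 minus Spint1 was 1.91, 1.68 and 1.70 in EpCAM+ and -0.18, -2.19 and -0.60 in EpCAM- replicates.

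**Figure D3:**
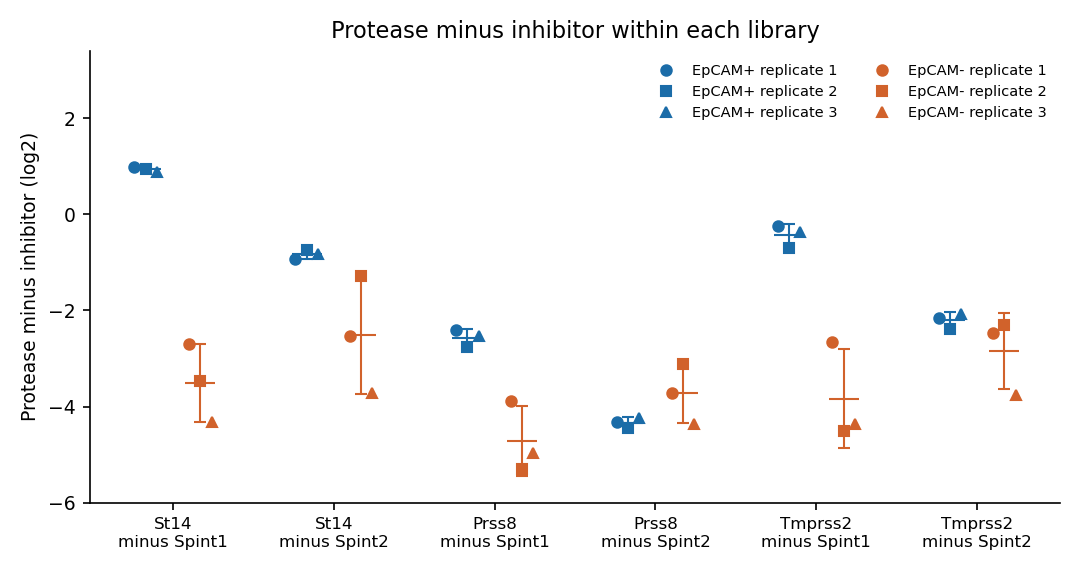
Protease minus inhibitor log2 level within each library (vertical axis) for 6 pairs; points are libraries, horizontal marks are group means and bars are SD (n = 3). The groups are apart for the 3 pairs with Spint1 and for St14 minus Spint2, and overlap for Prss8 minus Spint2 and Tmprss2 minus Spint2.

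Among EpCAM+ libraries the SDs of the 6 genes lay between 0.072 for St14 and 0.26 for Tmprss2. EpCAM- libraries varied more for 5 of the 6, with SDs of 0.43 for Tmprss2, 0.44 for St14, 0.60 for Spint1, 0.64 for Epcam and 0.80 for Spint2. For Prss8 the SD was 0.20 in both groups. The median SD over all tested genes was 0.163 in EpCAM+ and 0.233 in EpCAM- libraries, and in EpCAM+ libraries Prss8 and Tmprss2 lay above it. The genes did not share one order of EpCAM- libraries. Epcam and St14 were lowest in replicate 3, Spint1 in replicate 1, and Spint2, Tmprss2 and Prss8 in replicate 2.

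Markers of several cell types differed between the groups. For the counts below, the background was 23.1% of all tested genes for a fall and 20.3% for a rise. Summed on the linear scale, the 10 epithelial markers made up 1.27%, 1.20% and 1.22% of EpCAM+ replicates 1, 2 and 3, against 0.158%, 0.0881% and 0.184% of the EpCAM- replicates. All 10 fell, among them E-cadherin, Cdh1, which had log2 levels of 11.51, 10.47 and 13.25 in the EpCAM- replicates. The 10 markers did not share one order of EpCAM- libraries. The 10 fibroblast markers took 0.0546%, 0.00475% and 0.00581% in EpCAM+ and 0.483%, 0.637% and 0.144% in EpCAM- replicates, and 9 of 10 rose. The leukocyte markers ran the other way, with 0.0169%, 0.00353% and 0.00654% in EpCAM+ and between 0.00128% and 0.00205% in EpCAM- libraries, and 6 of 7 tested fell. Of that list, the T cell genes Cd3e and Cd3g had log2 levels between -1.52 and -1.40 in all libraries, where -1.52 is the lowest value of the table. The 10 acinar markers took between 0.216% and 0.456% in EpCAM+ libraries and between 0.00201% and 0.00237% in EpCAM- libraries, and all fell. The endothelial markers took under 0.001% in every library, where 1 of 6 tested rose (Kdr) and 1 fell (Esam). Kdr lost its call without EpCAM+ replicate 1 or 3 or EpCAM- replicate 2 or 3, at adjusted p of 0.134, 0.149, 0.123 and 0.136. Without EpCAM+ replicate 3, 5 fibroblast markers rose and 2 leukocyte markers fell, and 2 leukocyte markers fell without EpCAM- replicate 3. Whether the marker RNAs came from sorted cells of pancreatic descent or from other cells was not tested. Nor was the part of other cells in the levels of the 6 genes.

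Other proteases of the same membrane-anchored kind were mostly low or lower in EpCAM- cells. Of 25 listed genes, 23 were in the table and 8 were tested, of which 6 fell, 1 rose and 1 did not pass, with a median log2 fold change of -1.49. Of all tested genes, 23.1% fell and 20.3% rose. Tmprss4, a close relative of Tmprss2, had 11.81 ± 0.18 in EpCAM+ cells and 5.39 ± 0.63 in EpCAM- cells (SD, n = 3 per group) and fell by 6.42 ± 0.31 log2 units (SE, limma adjusted p = 1.14e-05). Hepsin, Hpn, which like matriptase can activate growth factor precursors, fell from 10.52 ± 0.10 to 4.76 ± 0.29. Prss22, a tryptase-like protease, fell less, from 11.80 ± 0.30 to 9.09 ± 0.58, and Prss27 fell by 1.60. Tmprss11b was the member that rose, from 4.64 ± 0.24 to 6.24 ± 0.63 (SD, n = 3 per group, limma adjusted p = 0.00884). Prss36, the neighbour of Prss8, did not pass at -0.48 (adjusted p = 0.0715). With a minimum mean of 50 in place of 10, which leaves fewer of these genes tested, 3 fell.

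Of 10 other tested genes with Kunitz domains, 1 fell, 3 rose and 6 did not pass, with a median log2 fold change of 0.40. Over all tested genes, 23.1% fell and 20.3% rose, so the share that rose is not far from the background. Tfpi2, a secreted inhibitor of plasmin and other proteases, rose from 3.89 ± 0.72 to 7.84 ± 0.94 (SD, n = 3 per group, limma adjusted p = 0.00126). The collagens Col6a3 and Col7a1, which carry such a domain, rose by 4.50 ± 0.95 and 1.64 ± 0.22 log2 units (SE). Ambp, the precursor gene of bikunin, was the one that fell, from 9.85 ± 0.48 to 3.88 ± 0.36. The amyloid precursor genes App (-0.24, adjusted p = 0.284) and Aplp2 (0.16, adjusted p = 0.337) did not pass. Tfpi (0.57) did not pass either, but did without EpCAM- replicate 3, at 1.49 and an adjusted p of 0.0173. Col28a1 (2.34) likewise passed without EpCAM- replicate 2, at 1.11 and an adjusted p of 0.0205.

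**Figure D4:**
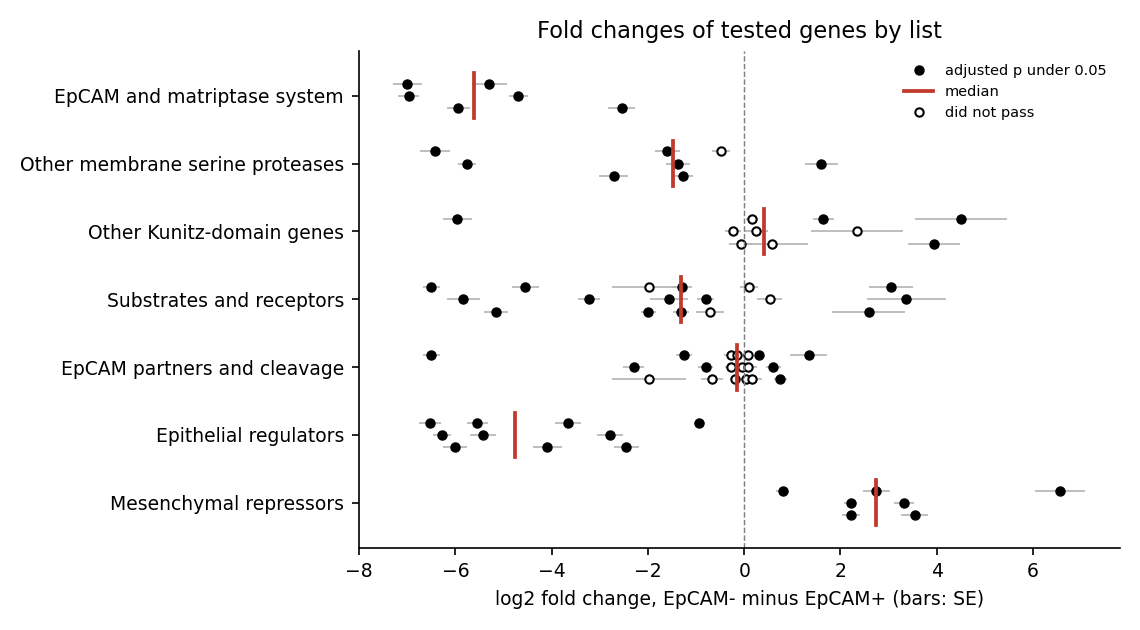
Log2 fold change, EpCAM- minus EpCAM+ (horizontal axis), of tested genes in 7 lists; bars are SE, filled points passed at an adjusted p under 0.05 and red lines are list medians. The 6 genes of the system lie between -7.00 and -2.54, while the other Kunitz-domain genes lie on both sides of 0.

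Of 17 tested genes listed as substrates of the system or their receptors, 10 fell, 3 rose and 4 did not pass. Their median log2 fold change was -1.32. That list also holds the claudin genes Cldn7 and Cldn1, which are counted among the EpCAM partners too. The background was 23.1% of tested genes for a fall and 20.3% for a rise, and the share that rose lay near it. Cldn7, the claudin that binds EpCAM, fell from 12.45 ± 0.051 to 5.95 ± 0.33, and Cdcp1, a surface protein that matriptase cleaves, from 12.19 ± 0.016 to 6.35 ± 0.77 (SD, n = 3 per group). Hgfac, a secreted protease that activates hepatocyte growth factor, fell by 5.15 ± 0.25 log2 units (SE, limma adjusted p = 1.16e-05). Its substrate gene Hgf went the other way, from 4.06 ± 0.73 to 7.11 ± 0.66 (SD, n = 3 per group, limma adjusted p = 0.00192).

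The receptors of these growth factors differed. Mst1r, the receptor of macrophage stimulating protein, fell by 4.55 ± 0.29 log2 units (SE), while Met, the receptor of Hgf, had 12.25 ± 0.27 in EpCAM+ cells and 12.35 ± 0.25 in EpCAM- cells (SD, n = 3 per group, limma adjusted p = 0.681). F2rl1, a receptor that matriptase switches on by cleavage, fell (-1.29 ± 0.21, SE), as did Scnn1a (-3.23 ± 0.24), a subunit of the sodium channel that prostasin activates. The urokinase gene Plau did not pass at -0.71 (adjusted p = 0.0861) with all libraries and passed without EpCAM- replicate 1 (-0.99, adjusted p = 0.0193). Nrcam (3.37) and Mmp3 (2.58) were the further genes that rose. Mmp3 lost its call without EpCAM+ replicate 2 or 3 or EpCAM- replicate 2, at adjusted p of 0.0904, 0.0653 and 0.0654. Pdgfd, which fell by 1.57, lost its call without EpCAM+ replicate 1 (adjusted p = 0.0589) or EpCAM- replicate 2 (adjusted p = 0.0533). Pdgfc (0.53) did not pass with all 6 libraries and did without EpCAM- replicate 3 (0.78, adjusted p = 0.0378).

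Genes whose products bind or cut EpCAM were counted next. Of 19 tested partners and cleavage genes, 4 fell, 4 rose and 11 did not pass, with a median log2 fold change of -0.16. These shares are near those of all tested genes, of which 23.1% fell and 20.3% rose. Besides Cldn7, those that fell were the tetraspanin Tspan8 (-2.29 ± 0.22, SE), the beta-catenin gene Ctnnb1 (-1.26 ± 0.16) and Psenen (-0.80 ± 0.16), a subunit of gamma-secretase. The sheddase genes Adam17 (0.75 ± 0.13, SE, limma adjusted p = 0.00386) and Adam10 (0.60 ± 0.16, limma adjusted p = 0.0187) rose. The gamma-secretase genes Psen2 (0.088), Ncstn (-0.19) and Aph1a (-0.27) did not pass, nor did Fhl2 (-0.046), whose protein joins the freed EpCAM tail.

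Several calls of this list were lost with 1 library left out. Lef1 (1.34) and Pkn2 (0.31) were the others that rose. Without EpCAM+ replicate 1, 2 or 3, Lef1 had log2 fold changes of 1.38, 1.25 and 1.39 (adjusted p of 0.0629, 0.0814 and 0.0722) and Pkn2 of 0.36, 0.33 and 0.25 (adjusted p of 0.0598, 0.0804 and 0.125). Pkn2 also lost its call without EpCAM- replicate 2 (0.29, adjusted p = 0.0830) or 3 (0.32, adjusted p = 0.0771). Adam10 lost its call without EpCAM+ replicate 2 (0.60, adjusted p = 0.0563) or 3 (0.57, adjusted p = 0.0693). Without EpCAM- replicate 1, 7 of these genes fell, Cldn1 (-2.61, adjusted p = 0.0327), Aph1a (-0.42, adjusted p = 0.00892) and the actin crosslinker Actn4 (-0.90, adjusted p = 0.00521) in addition. With all libraries Cldn1 had -1.98 (adjusted p = 0.0761) and Actn4 -0.66 (adjusted p = 0.0514).

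Epithelial regulators and mesenchymal transcription factors moved in opposite directions. All 10 tested epithelial regulators fell, with a median log2 fold change of -4.76, against 23.1% of all tested genes that fell. That list is not of promoter factors alone, as it holds the splicing regulators Esrp1 (-6.53 ± 0.23, SE) and Esrp2 (-4.09 ± 0.29). All 7 tested mesenchymal repressors rose, with a median of 2.75, against 20.3% of all tested genes that rose. Both directions were known from earlier results of these libraries when the lists were made. Grhl2, a Grainyhead factor known to bind near Epcam and Spint1 in epithelia, fell from 10.02 ± 0.080 to 4.47 ± 0.34 (SD, n = 3 per group), and its relatives Grhl1 (-2.46) and Grhl3 (-2.79) fell as well. The Ets factors Ehf and Elf3 had log2 fold changes of -6.28 ± 0.19 and -6.02 ± 0.25 (SE), and Klf5 of -0.93 ± 0.12. Zeb1 rose from 8.69 ± 0.19 to 10.91 ± 0.15 and Zeb2 from 9.35 ± 0.49 to 12.09 ± 0.36 (SD, n = 3 per group). Snai1 and Snai2 rose by 2.22 ± 0.18 and 3.54 ± 0.28 (SE). The rise of Prrx1 was the widest of this list, at 6.57 ± 0.52, and Twist1 rose by 3.32 ± 0.21 (SE). Whether any of them acts on the stretches printed above was not tested.

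Genes beside the 6 on their chromosomes gave a local comparison, by a rule added after the table had been seen, the nearest protein-coding gene of the table on each side. Of the 12 neighbours, 10 were tested, and 5 of these fell, against 23.1% of all tested genes. Beside Epcam, the calmodulin gene Calm2 did not pass (-0.051, adjusted p = 0.747). The neighbours of St14, Zbtb44 (0.22, adjusted p = 0.138) and Aplp2, 17.7 kb away, did not pass. Tmprss2 differed from these loci, as both its neighbours fell, Fam3b with -3.66 ± 0.28 and the kinase gene Ripk4 with -4.97 ± 0.48 (SE). Next to Spint1, the GTPase gene Rhov fell by 1.84 ± 0.48, and next to Spint2, 2200002D01Rik fell by 2.21 ± 0.31.

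Over the 6 libraries, Epcam and St14 had the most similar profiles among the 6 genes. Likeness was measured as the Euclidean distance between log2 levels centred on each gene's mean, which was 0.518 for Epcam and St14. The farthest pair was Epcam and Spint1, at 5.69, and Prss8 lay closest to Spint2, at 1.16. Among 11518 other genes with a linear mean of 100 or more, the 5 closest to Epcam were Gabrp (0.262), Krt7 (0.372), Lcn2 (0.386), Cldn3 (0.480) and Crb3 (0.651). They encode a GABA receptor subunit, a duct keratin, the iron-scavenging lipocalin-2, a tight junction claudin and a polarity protein. Like Epcam, all 5 were lowest in EpCAM- replicate 3, where Gabrp had a log2 level of 5.18 against 6.45 and 6.12 in EpCAM- replicates 1 and 2. Their fold changes lay between -7.11 and -6.53. The 5 closest to Tmprss2 were the protease genes Ctse (0.116) and Mcpt1 (0.344), the oxidase gene Duox2 (0.280), the connexin gene Gjb1 (0.363) and Tc2n (0.385). The profile of Ctse, which encodes cathepsin E, ran at 15.83, 15.43 and 15.83 in EpCAM+ and 10.27, 9.39 and 9.64 in EpCAM- replicates, with replicate 2 lowest in each group as for Tmprss2. These distances describe 6 libraries that share one contrast, and genes with a like fold change are close for that reason alone. The nearest genes were picked over these same libraries, so a shared lowest replicate is no separate result.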

How the data were processed

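RNA of sorted YFP-positive tumour cells was measured in 6 libraries made with the KAPA mRNA HyperPrep kit, per the labels' protocols. STAR 2.5.2, RSEM and DESeq2 1.24.0 with the build GRCm38 are named, without role or order, per the submitters' processing notes. The authors deposited log2 values, normalised between libraries with a transform that no source used here names. They ran from -1.52 to 20.05, and the highest back-transformed sum of a library was 1.07 times the lowest. Sequencing depth is therefore unknown, and no detection limit is given. Whether the transform shrinks fold changes at the low EpCAM- levels was not tested.

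The values were tested as deposited with limma 3.58.1 in R 4.3.3 (trend in the prior variance, no covariate), EpCAM- minus EpCAM+, over the 15783 genes whose linear mean over all libraries reached 10. P-values are two-sided and Benjamini-Hochberg adjusted over the tested genes (threshold 0.05). The procedure was tested on simulated data. Replicates are called biological in the series text, and no label says whether equal numbers share a tumour, so p-values cover only the spread between the libraries at hand. Pearson correlations between libraries over tested genes were 0.977 to 0.989 for libraries of the same group and 0.854 to 0.883 otherwise. Symbols were taken by Ensembl identifier from GENCODE M21, which matched 25831 identifiers.

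Members, lists and tests were chosen with earlier results of these data known. The rule for named genes took the 6 members, up to 4 per list and direction that passed with the widest change and up to 4 that did not pass, and the 5 nearest profiles to Epcam and Tmprss2. Further genes were chosen after their values were seen, where leaving out 1 library changes their call and where they neighbour a member. F2rl1, Scnn1a, Cdh1, Esrp2, Grhl1, Grhl3, Klf5, Snai1 and Zeb1 were named outside these rules. A gene that the rule takes and an allele of the genotype are not reported here. As alternatives, pseudocounts (0.5, 1 and 5) were added on the linear scale, the filter was dropped or raised to a mean of 50, and levels were rescaled by the TMM formula without weights, the upper quartile or quantiles. A term for the replicate number and array weights were tried too. Libraries were left out singly, and EpCAM+ replicate 1 jointly with EpCAM- replicate 3.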

Additional observations from a re-analysis of the deposited data

How the results depend on the processing

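All 6 genes kept their direction and their call under each of the 17 alternatives. Over these, the log2 fold change lay between -7.29 and -6.58 for Epcam, -7.17 and -6.74 for St14, -6.18 and -5.78 for Tmprss2, -5.67 and -4.87 for Spint2, -4.80 and -4.46 for Prss8 and -2.77 and -2.20 for Spint1. Of the 6 protease minus inhibitor differences, each kept its direction under all 11 alternatives run for it, and that of Tmprss2 minus Spint2 lay between -0.90 and -0.16. Of all tested genes, 6850 changed with all libraries and between 4987 and 7300 with 1 library left out, lowest without EpCAM+ replicate 3 and highest without EpCAM- replicate 1, when 3325 rose. Without EpCAM+ replicate 1 and EpCAM- replicate 3 together, 4369 genes changed, 1907 of them upward, and 2 partners of EpCAM rose in place of 4. With 1 library left out, between 1 and 4 partners rose and between 4 and 7 fell, and 7 fell with array weights. With no filter 2 other membrane proteases rose, and with a minimum mean of 50, 3 fell. Of the marker lists, between 5 and 10 fibroblast markers rose and between 2 and 5 leukocyte markers fell with 1 library left out, and 2 leukocyte markers fell without EpCAM+ replicate 1 and EpCAM- replicate 3 together. In limma, 0 endothelial markers rose in place of 1 with no filter, with the TMM formula (2 each at an unadjusted p under 0.05), with a minimum mean of 50 or without those libraries together (1 each unadjusted). With 1 library left out, between 0 and 1 rose (between 0 and 2 unadjusted), and 2 rose with quantile normalisation or the replicate block. A minimum mean of 50 left only 1 endothelial marker tested, so 0 fell, and without both libraries 0 fell as well (1 unadjusted). Quantile normalisation put the median log2 fold change of all tested genes at 0.14, against 0.0043, and changed no call of the 6. Deviations of same-numbered libraries from their group means correlated at 0.410, 0.0438 and 0.165 for numbers 1, 2 and 3. Between libraries of unequal number these correlations lay between -0.337 and 0.230. The numbers were not used as pairs in the main fit because no label says that equal numbers share a tumour. These values do not show whether the libraries are paired. With the replicate block, 7090 genes changed and all 6 genes kept their calls. Depth is unknown, so the reads behind the low EpCAM- levels cannot be given.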
